A study of Mus musculus with 11 samples.

Results

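The genes described here are 9 factors and markers of the primed epiblast and the early neural plate: Otx2, Otx1, Zic2, Zic5, Irx3, Meis1, Pax6, Nes and Nrcam. Every probe that the platform annotation assigns to 1 of these symbols was taken, which gave 10 probes out of 25697 on the bead array, 2 of them for Nes and 1 for each other gene. The array carries 16593 annotated genes in all. A probe counted as detected on an array when its detection p-value, which sets its signal against the background of that array, was under 0.01. Of the 10 probes, 8 were detected on at least 2 of the 11 arrays and were tested, and they covered 7 genes. The probes for Pax6 and Zic5 were detected on no array.

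The series profiled male mouse pluripotent cell lines on 11 Illumina MouseRef-8 v2 bead arrays in 6 groups. Epi-Sox2 (2 arrays) were GOF18 epiblast stem cells overexpressing wild-type Sox2 in conditioned medium, and EpiSC (2 arrays) were GOF18 epiblast stem cells. EpiSC-GFP+ and EpiSC-GFP- (2 arrays each) were the fractions of E3 epiblast stem cells in conditioned medium that were sorted for the presence or absence of the Oct4-GFP reporter. T9-EpiSC (1 array) were T9 epiblast stem cells kept for 2 days without Fgf2 on CF1 mouse embryonic fibroblast feeders and collected without them. ESC (2 arrays) were embryonic stem cells, the naive reference state. The groups are single cell lines, so a difference between E3 and GOF18 cells cannot be told apart from sorting or from other differences between the lines. The labels call the paired arrays biological replicates without naming separate cultures, and the p-values measure the spread between such pairs.

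Otx2 and its paralog Otx1 are paired-type homeobox factors that pattern the anterior epiblast and the forebrain, and Otx2 is a regulator of the primed state. Zic2 and Zic5 are zinc finger factors of the neural plate whose genes lie next to each other with 1 other, non-coding gene between them in the RefSeq annotation of GRCm38.p6. Irx3, of the Iroquois family, and Meis1, of the TALE homeobox family, pattern the neural plate, and Meis1 partners with Pbx and Hox proteins. Pax6 is a paired-box factor of neural progenitors and the eye. Nes encodes nestin, an intermediate filament of neural progenitors, and Nrcam encodes a neural cell adhesion molecule of the L1 family.

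Promoter windows from 250 bases before to 50 bases after the RefSeq transcript start (GRCm38.p6) were at hand for 7 of the 9 genes, 11 windows in all. The 4 printed here belong to Otx2, the gene with the largest difference from embryonic stem cells, to Nes, the gene read by 2 probes, and to Irx3 and Meis1, the members set apart in the T9 cells. Capitals mark the match to an Otx core motif, and all are written on the strand of the gene. They lie at chr14:48665060-48665359 (minus strand) for Otx2, chr3:87970843-87971142 (plus strand) for Nes, chr8:91801605-91801904 (minus strand) for Irx3 and chr11:19018920-19019219 (minus strand) for Meis1.
Otx2: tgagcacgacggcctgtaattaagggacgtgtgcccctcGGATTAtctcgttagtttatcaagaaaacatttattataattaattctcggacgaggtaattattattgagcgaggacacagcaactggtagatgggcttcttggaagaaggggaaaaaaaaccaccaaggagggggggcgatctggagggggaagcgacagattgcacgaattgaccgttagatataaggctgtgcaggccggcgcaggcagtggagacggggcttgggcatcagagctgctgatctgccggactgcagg
Nes: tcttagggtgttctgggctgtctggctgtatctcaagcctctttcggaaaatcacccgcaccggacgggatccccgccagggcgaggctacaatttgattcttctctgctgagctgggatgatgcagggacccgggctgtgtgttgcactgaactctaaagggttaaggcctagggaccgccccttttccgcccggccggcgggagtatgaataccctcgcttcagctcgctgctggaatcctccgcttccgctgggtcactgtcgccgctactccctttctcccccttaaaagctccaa
Irx3: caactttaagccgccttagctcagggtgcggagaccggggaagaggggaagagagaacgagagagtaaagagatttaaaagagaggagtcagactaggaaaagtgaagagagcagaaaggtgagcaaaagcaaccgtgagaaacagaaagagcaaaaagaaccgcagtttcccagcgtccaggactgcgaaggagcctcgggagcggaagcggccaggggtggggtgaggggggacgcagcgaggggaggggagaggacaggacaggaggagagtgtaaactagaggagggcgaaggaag
Meis1: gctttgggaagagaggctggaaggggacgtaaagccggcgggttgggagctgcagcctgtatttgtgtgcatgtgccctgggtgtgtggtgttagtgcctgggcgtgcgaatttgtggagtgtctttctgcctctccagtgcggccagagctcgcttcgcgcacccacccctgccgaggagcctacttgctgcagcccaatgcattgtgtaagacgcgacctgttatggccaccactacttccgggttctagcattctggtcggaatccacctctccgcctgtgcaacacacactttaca

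Short motifs were searched for on both strands, and none of them contains another. The Otx core motif TAATCC lay in 7.06% of all 32851 promoter windows in the table. The Sox2 core motif ATTGTT lay in 10.7% of them. The Oct4 octamer ATGCAAAT lay in 1.74%. The TATA box core TATAAA lay in 13.6%. Among the 11 windows of the members 2 held a match, both of Otx2, which has 4 listed starts. The window printed above holds the Otx core in its reverse form, GGATTA, 211 bases before the listed start. A second Otx2 window holds TATAAA 192 bases before its start. The other 9 windows, including those of Nes, Irx3 and Meis1, held none of these letters, and their GC content was 46.3% to 74%.

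The number of arrays and the background limit the precision of these values. Mean intensity was 199.7 to 371 on the epiblast stem cell arrays and 594.8 to 622.5 on the ESC arrays, and 9250 to 11675 probes were detected per array, with the fewest on the EpiSC-GFP- arrays. Replicates correlated at 0.987 to 0.995 over the tested probes. The primed markers were at 10 of 10 probes detected on every epiblast stem cell array and 9 of 10 on each ESC array. Their summed linear level was 15434.5 in T9-EpiSC, 18408 to 32488 in the other epiblast stem cells and 11375 to 11698 in ESC. The naive markers had 7 to 8 of 15 probes detected in EpiSC and 13 to 14 in ESC, with a summed linear level of 1723 to 1965 in EpiSC and 71688 to 75244 in ESC. Naive markers were also detected at 12 of 15 probes in Epi-Sox2, with a summed level of 18871 to 20304, and at 13 of 15 in EpiSC-GFP+, at 52139 to 53720. Fibroblast markers were detected at 7 to 8 of 26 probes in EpiSC and 13 to 14 in ESC, and Lox, a collagen-crosslinking enzyme, read 4.30 to 4.52 on all epiblast stem cell arrays against 7.69 and 7.56 in ESC. The part of these markers in the comparisons with ESC was not tested. Sox2 probe ILMN_2656102 read 8.51 and 8.61 in Epi-Sox2 against 7.74 and 7.51 in EpiSC (difference 0.93, limma adjusted p = 0.00222), and 8.72 to 9.44 on the other 7 arrays. The second Sox2 probe read 5.07 and 5.14 in Epi-Sox2, against 4.41 and 4.55 in EpiSC and 9.98 on both ESC arrays.

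All levels below are log2 normalized intensities, and levels are compared between groups for 1 probe at a time, never between probes. A difference is a log2 difference with its standard error (SE) from limma fitted across all tested probes, and its adjusted p is Benjamini-Hochberg over all 13048 probes. In bulk samples fewer cells with a transcript and less transcript per cell cannot be told apart.

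**Figure D1:**
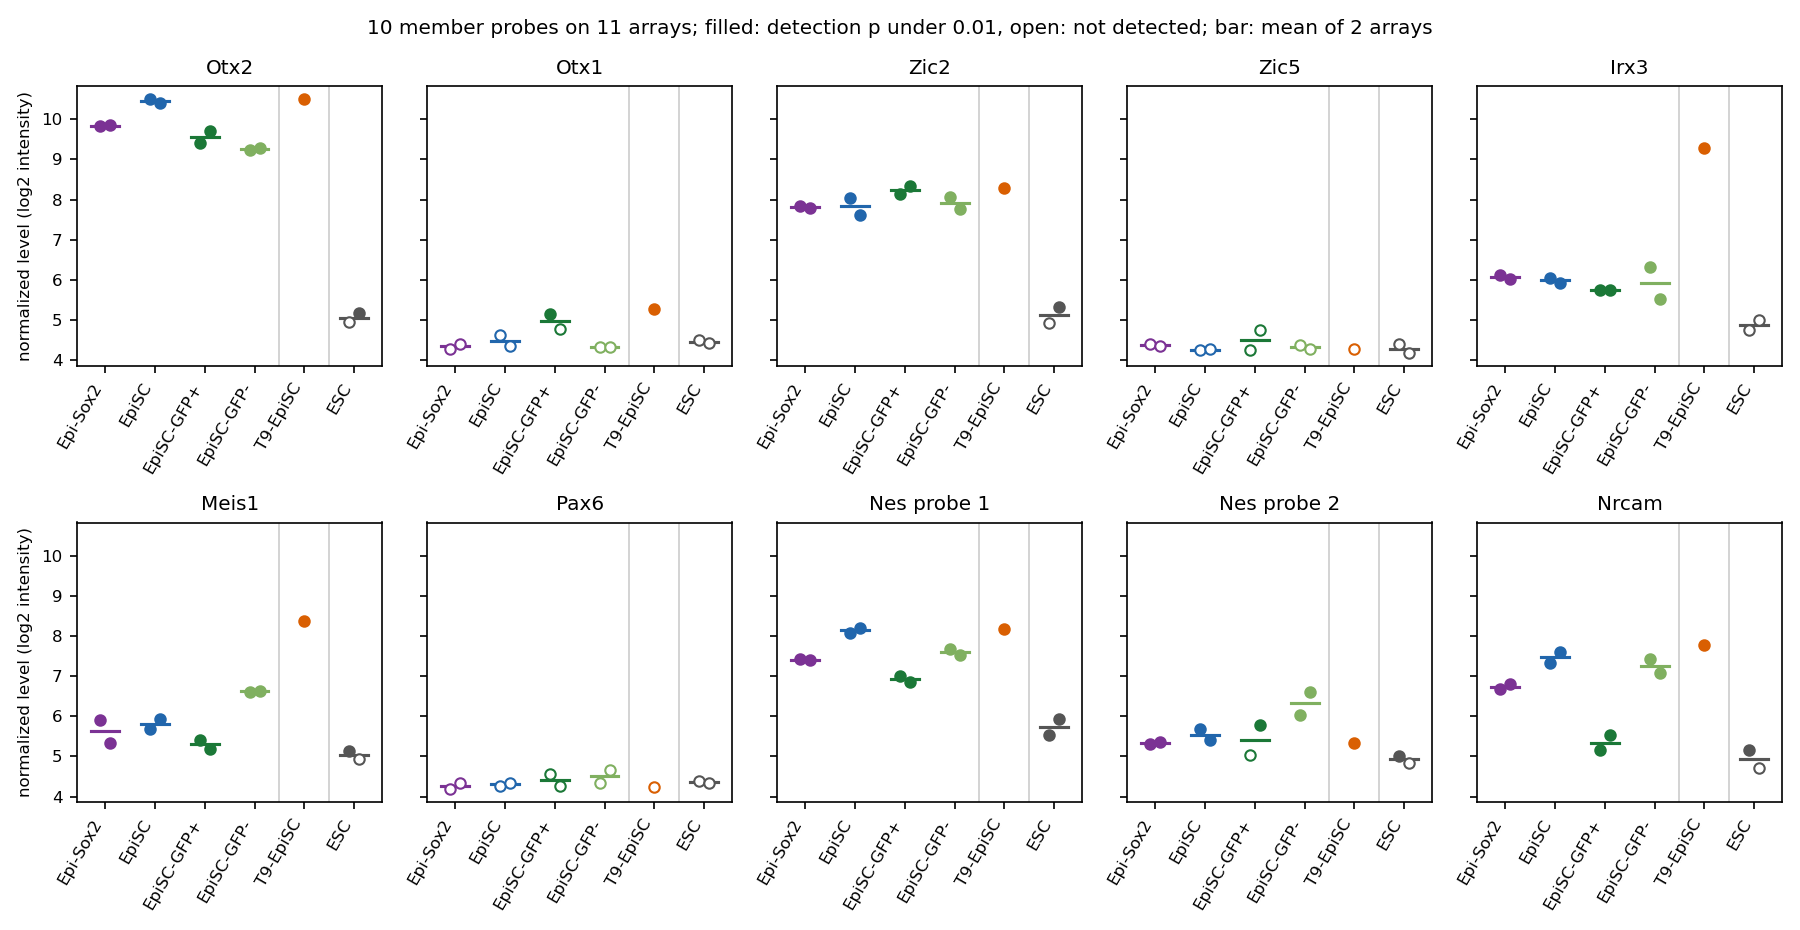
Normalized level (log2 intensity, vertical axis) of the 10 member probes on all 11 arrays by group (horizontal axis); points are arrays, filled where the detection p-value was under 0.01, and bars are means of 2 arrays. Otx2, Zic2 and the first Nes probe stand above ESC in every epiblast stem cell group, Irx3 and Meis1 are highest in T9-EpiSC, and Pax6 and Zic5 have no filled point.

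The first comparison sets epiblast stem cells against embryonic stem cells. In EpiSC, 6 of the 8 tested probes were higher than in ESC and none was lower, where 37.2% of all tested probes were called higher, 27.7% lower and 64.9% either way. In Epi-Sox2 the count was also 6 higher, beside 36.6% of all probes higher with 27.2% lower and 63.8% either way. In EpiSC-GFP+ it was 5 higher, beside 39.6% higher, 28.5% lower and 68.1% either way, and 1 of the 5 was Otx1, which passed the filter through an EpiSC-GFP+ array and the T9 array. In EpiSC-GFP- it was 7 higher, beside 40.4% higher, 31.0% lower and 71.4% either way. The median difference of the 8 probes was 1.44 in Epi-Sox2, 1.76 in EpiSC, 0.69 in EpiSC-GFP+ and 1.73 in EpiSC-GFP-, and the median over all tested probes was 0.16, 0.16, 0.20 and 0.17 in the same comparisons. These 4 comparisons share the ESC arrays. Otx2, Zic2, Irx3 and the first Nes probe were called higher in each of the 4. Since so large a share of all probes differed, the share of members called either way is not far from the background.

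Otx2 (probe ILMN_2691752) separated the epiblast stem cells from ESC by the largest difference of the members. Its level was 9.82 and 9.86 in Epi-Sox2, 10.51 and 10.41 in EpiSC, 9.40 and 9.70 in EpiSC-GFP+ and 9.23 and 9.27 in EpiSC-GFP-, against 4.95 and 5.17 in ESC. No epiblast stem cell array came near the ESC arrays, only 1 of which detected the probe. EpiSC exceeded ESC by 5.41 ± 0.14 (SE; 42.4-fold, limma adjusted p = 1.21e-08), Epi-Sox2 by 4.79 ± 0.14 (adjusted p = 5.23e-08), EpiSC-GFP+ by 4.50 ± 0.14 (adjusted p = 3.38e-08) and EpiSC-GFP- by 4.19 ± 0.14 (adjusted p = 2.43e-08). The ESC levels lay near the detection limit, and the EpiSC difference was 3.80 to 6.71 under the alternatives run. In order, EpiSC were highest, then Epi-Sox2, EpiSC-GFP+, EpiSC-GFP- and ESC, and the arrays of neighbouring groups in that order did not overlap.

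The Otx1 probe (ILMN_2690126) stayed near background. It was detected on the first EpiSC-GFP+ array at 5.15 and on the T9-EpiSC array at 5.26, and those arrays carried it past the detection filter. The second EpiSC-GFP+ array read 4.78, and the 8 arrays of the other replicated groups read 4.27 to 4.62. The fit placed EpiSC-GFP+ above ESC by 0.50 ± 0.16 (limma adjusted p = 0.018), with no fold given because the EpiSC-GFP+ mean of 4.96 lies below the lowest detected signal of the ESC arrays. Leaving out either ESC array ended that call (adjusted p = 0.064 and 0.0994).

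Zic2 (probe ILMN_2470518) was the second gene to mark all epiblast stem cell groups. Its level was 7.83 and 7.78 in Epi-Sox2, 8.04 and 7.62 in EpiSC, 8.14 and 8.33 in EpiSC-GFP+ and 8.06 and 7.77 in EpiSC-GFP-, against 4.93 and 5.32 in ESC. Again 1 of the 2 ESC arrays detected it, and all epiblast stem cell arrays lay above both. The difference from ESC was 2.68 ± 0.19 in Epi-Sox2, 2.71 ± 0.19 in EpiSC, 3.11 ± 0.19 in EpiSC-GFP+ and 2.79 ± 0.19 in EpiSC-GFP- (largest limma adjusted p = 2.19e-06). The arrays of Epi-Sox2, EpiSC and EpiSC-GFP- overlapped one another, while both EpiSC-GFP+ arrays lay above them. The Zic5 probe (ILMN_2798820), for the neighbouring gene, read 4.18 to 4.76 on the 11 arrays and was detected on none.

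Irx3 (probe ILMN_2776909) was low in the replicated epiblast stem cell groups and not detected in ESC. It read 6.12 and 6.03 in Epi-Sox2, 6.05 and 5.93 in EpiSC, 5.75 and 5.76 in EpiSC-GFP+ and 6.31 and 5.52 in EpiSC-GFP-, against 4.75 and 5.0 in ESC. Because ESC has only an upper bound, the bound on the fold is the epiblast mean over the lowest detected signal of the ESC arrays. It was at least 2.08-fold in Epi-Sox2 (limma adjusted p = 0.00113), at least 1.96-fold in EpiSC (adjusted p = 0.00178), at least 1.67-fold in EpiSC-GFP+ (adjusted p = 0.00622) and at least 1.86-fold in EpiSC-GFP- (adjusted p = 0.00218). The measured means were 6.08, 5.99, 5.75 and 5.92 in those groups, against 4.88 in ESC. The 2 EpiSC-GFP- arrays spanned the levels of all other replicated epiblast stem cell groups. The EpiSC-GFP+ call ended without the first ESC array (adjusted p = 0.0535), and median scaling ended it (adjusted p = 0.054) and the EpiSC-GFP- call (adjusted p = 0.099).

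Meis1 (probe ILMN_1218266) differed between the E3 fractions, which were its highest and lowest among the replicated epiblast stem cell groups. It read 5.92 and 5.33 in Epi-Sox2, 5.68 and 5.94 in EpiSC, 5.40 and 5.19 in EpiSC-GFP+ and 6.61 and 6.64 in EpiSC-GFP-, against 5.12 and 4.94 in ESC, where 1 array detected it. EpiSC-GFP- exceeded ESC by 1.59 ± 0.20 (SE; limma adjusted p = 5.59e-05), EpiSC by 0.78 ± 0.20 (adjusted p = 0.00646) and Epi-Sox2 by 0.59 ± 0.20 (adjusted p = 0.0248). The EpiSC-GFP+ difference of 0.27 ± 0.20 did not pass (adjusted p = 0.258). The calls in EpiSC and Epi-Sox2 ended when single arrays were left out: without the second ESC array the adjusted p was 0.0512 for EpiSC and 0.135 for Epi-Sox2, and without the second EpiSC array it was 0.0501 for EpiSC. For Epi-Sox2 it was 0.055 without the first ESC array and 0.207 without the first Epi-Sox2 array.

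The 2 nestin probes gave different sizes of difference. Nes probe 1 (ILMN_2703267) read 7.42 and 7.40 in Epi-Sox2, 8.08 and 8.21 in EpiSC, 7.0 and 6.85 in EpiSC-GFP+ and 7.69 and 7.52 in EpiSC-GFP-, against 5.53 and 5.94 in ESC. All 11 arrays detected it, and the groups lay in the order EpiSC, EpiSC-GFP-, Epi-Sox2, EpiSC-GFP+ and ESC without overlap. Its difference from ESC was 1.67 ± 0.16 in Epi-Sox2, 2.41 ± 0.16 in EpiSC, 1.19 ± 0.16 in EpiSC-GFP+ and 1.87 ± 0.16 in EpiSC-GFP- (largest limma adjusted p = 0.000109). Nes probe 2 (ILMN_2904590) read 5.30 and 5.36 in Epi-Sox2, 5.69 and 5.40 in EpiSC, 5.03 and 5.78 in EpiSC-GFP+ and 6.04 and 6.61 in EpiSC-GFP-, against 5.02 and 4.83 in ESC. It passed in EpiSC-GFP- alone among the 4 comparisons, by 1.40 ± 0.26 (limma adjusted p = 0.000759), and its EpiSC difference was 0.62 ± 0.26 (adjusted p = 0.0564), which passed with cyclic loess, an intensity trend or only those 2 groups in the fit. Over the 11 arrays the pair correlated at r = 0.47, as a description.

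Nrcam (probe ILMN_1245780) split the epiblast stem cell groups. It read 6.68 and 6.81 in Epi-Sox2, 7.33 and 7.61 in EpiSC, 5.16 and 5.53 in EpiSC-GFP+ and 7.44 and 7.08 in EpiSC-GFP-, against 5.16 and 4.71 in ESC. The EpiSC-GFP+ arrays lay beside the ESC arrays and the other 3 groups lay above both. The difference from ESC was 1.81 ± 0.21 in Epi-Sox2 (limma adjusted p = 4.54e-05), 2.54 ± 0.21 in EpiSC (adjusted p = 4.92e-06) and 2.33 ± 0.21 in EpiSC-GFP- (adjusted p = 5.64e-06). In EpiSC-GFP+ it was 0.41 ± 0.21 and did not pass (adjusted p = 0.105). Pax6 (probe ILMN_2612187) read 4.20 to 4.67 on the 11 arrays and was detected on none.

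**Figure D2:**
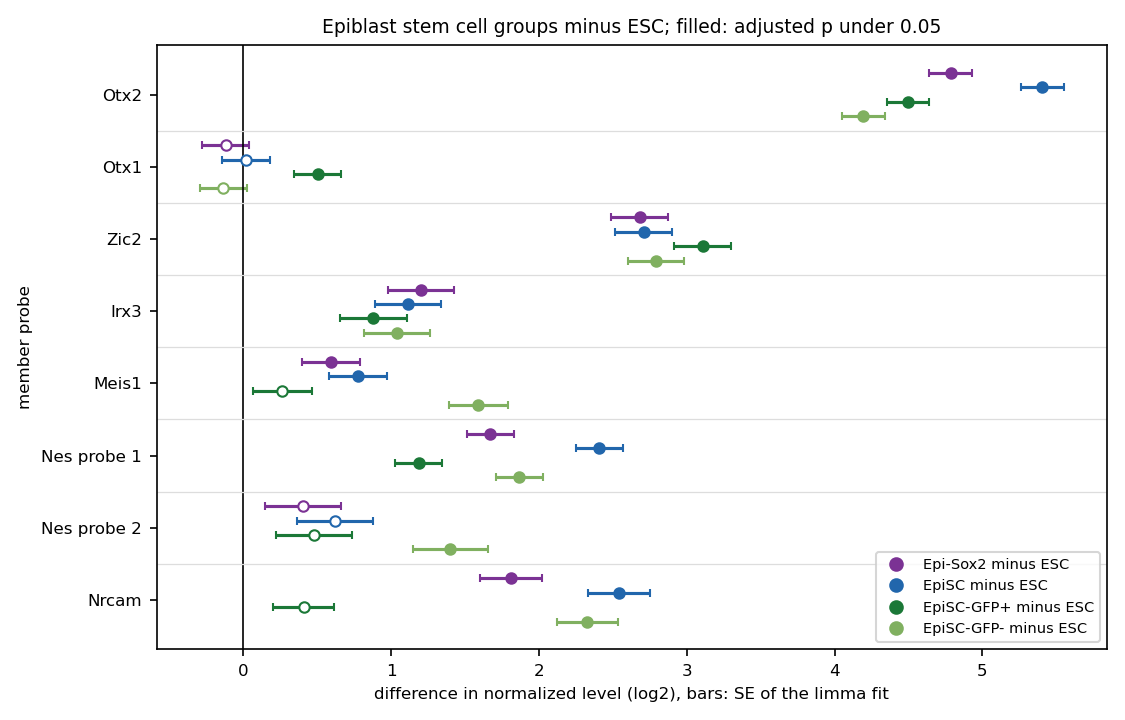
Difference from ESC in log2 level (horizontal axis; bars are the SE of the limma fit) for the 8 tested member probes (vertical axis) in Epi-Sox2, EpiSC, EpiSC-GFP+ and EpiSC-GFP-, filled where the adjusted p was under 0.05. Otx2 lies between 4.19 and 5.41, Zic2 between 2.68 and 3.11, and Nrcam in EpiSC-GFP+ lies at 0.41 against 1.81 to 2.54 in the other 3 groups.

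Other genes of these programmes did not all stand higher in the epiblast stem cells. Of 11 tested probes for anterior epiblast and forebrain factors, 5 were higher and 2 lower in EpiSC than in ESC. They include the POU factor Pou3f1, at 9.70 in EpiSC and 6.17 in ESC (difference 3.54 ± 0.16, limma adjusted p = 1.55e-07), and the organizer factor Gsc, at 7.83 in EpiSC and 4.91 in ESC (2.92 ± 0.21, adjusted p = 2.12e-06). The LIM homeobox factor Lhx1 was not detected in ESC and was at least 2.79-fold higher in EpiSC (means 6.50 and 4.42, adjusted p = 8.75e-05). Probes for Six3, Six6, Rax, Emx2, Lhx2, Lhx5 and Vax1, factors of the forebrain and eye, were detected on no array. Of the 7 tested probes for early neural genes 1 was higher in EpiSC than in ESC and 4 were lower. The higher one was the zinc finger gene Zfp521, at least 1.93-fold (means 5.96 in EpiSC and 4.57 in ESC, adjusted p = 0.000408). Among the lower ones was the microtubule gene Map2, at 5.13 in EpiSC and 6.41 in ESC (-1.27 ± 0.15, adjusted p = 6.24e-05). The early neural list holds 39 probes, and 4 to 5 of them were detected on the EpiSC arrays and 4 to 5 on the ESC arrays. Of 11 tested probes for neural cell adhesion genes, relatives and partners of Nrcam, 5 were higher in EpiSC and 2 lower. The ankyrin gene Ank2 was at least 2.33-fold higher in EpiSC than in ESC, which did not detect that probe (means 6.24 and 4.50, adjusted p = 2.68e-06). The median difference was 0.29 for the anterior list, -0.58 for the early neural list and 0.48 for the adhesion list, and it was 0.16 for all tested probes.

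Among the relatives of Zic, Irx and Meis, 4 of 16 tested probes were higher in EpiSC than in ESC and 1 was lower. The Meis partner Pbx3 was at least 3.60-fold higher in EpiSC (means 6.87 and 4.40, limma adjusted p = 1.51e-06), since ESC did not detect it. The TALE repressor gene Tgif1 had 3 tested probes, of which 1 was lower in EpiSC, at 7.17 against 10.04 in ESC (-2.86 ± 0.17, adjusted p = 6.79e-07), and the other two differed by -0.08 and -0.35. Of the 7 tested posterior neural probes 1 was higher in EpiSC than in ESC and 5 were lower. Gbx2, a hindbrain and naive-state homeobox gene, read 5.51 in EpiSC and 10.44 in ESC (-4.93 ± 0.18, adjusted p = 6.13e-08). Fgf8, a growth factor of the streak and isthmus, was at least 18.1-fold higher in EpiSC (means 9.20 and 4.74, adjusted p = 3.93e-07).

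The second comparison sets GOF18 cells overexpressing Sox2 against GOF18 EpiSC. Sox2 overexpression cannot be told apart here from other differences between these groups, such as derivation or culture. In Epi-Sox2, 3 of the 8 tested probes were lower than in EpiSC and none was higher, where 8.01% of all tested probes were called lower, 8.65% higher and 16.7% either way. Otx2 read 9.82 and 9.86 in Epi-Sox2 against 10.51 and 10.41 in EpiSC, a difference of -0.62 ± 0.14 (limma adjusted p = 0.0195). Nes probe 1 read 7.42 and 7.40 in Epi-Sox2 against 8.08 and 8.21 in EpiSC, a difference of -0.74 ± 0.16 (adjusted p = 0.0147). Nrcam read 6.68 and 6.81 in Epi-Sox2 against 7.33 and 7.61 in EpiSC, a difference of -0.73 ± 0.21 (adjusted p = 0.041). In each of these 3 genes both Epi-Sox2 arrays lay below both EpiSC arrays. The other 5 probes differed by -0.22 to 0.09, and Zic2 and Irx3 differed by -0.03 ± 0.19 and 0.09 ± 0.23. The calls rested on all 4 arrays: leaving out either Epi-Sox2 array left none of the 3, leaving out either EpiSC array left 1, and the authors' deposited log2 values gave none, where the differences were -0.64, -0.83 and -0.87 and 3 of the 8 probes had an unadjusted p under 0.05.

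In the other lists the genes lower in Epi-Sox2 than in EpiSC included 4 of 11 tested anterior probes, with none higher. Gsc was not detected in Epi-Sox2 and was at least 7.77-fold lower there (means 4.69 in Epi-Sox2 and 7.83 in EpiSC, limma adjusted p = 3.12e-05). Lhx1 was at least 3.09-fold lower (means 4.27 in Epi-Sox2 and 6.50 in EpiSC, adjusted p = 0.000915). Of the early neural probes, 1 of 7 was lower, the intermediate filament gene Vim, at 8.71 in Epi-Sox2 and 9.36 in EpiSC (-0.65 ± 0.13, adjusted p = 0.0106). Of the 7 posterior neural probes 2 were higher and 1 lower, with Gbx2 at 8.62 in Epi-Sox2 and 5.51 in EpiSC (3.11 ± 0.18, adjusted p = 1.19e-05) and Fgf8 at 5.72 in Epi-Sox2 and 9.20 in EpiSC (-3.47 ± 0.24, adjusted p = 3.72e-05). None of 11 adhesion probes passed by limma, and 1 had an unadjusted p under 0.05. Of 16 Zic, Irx and TALE probes 2 were lower, for Pbx3 and Pbx2. Naive marker probes differed as well, 9 of 14 higher in Epi-Sox2 and none lower. Of 15 fibroblast marker probes 4 were higher, all 4 of them for the smooth muscle actin gene Acta2. The part of both marker sets in the result was not tested.

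The third comparison sets the reporter-positive E3 fraction against the reporter-negative one. In EpiSC-GFP+, 4 of the 8 tested probes were lower than in EpiSC-GFP- and 1 was higher, where 11.8% of all tested probes were called lower, 12.0% higher and 23.8% either way. The higher one was Otx1, which passed the detection filter through 1 EpiSC-GFP+ array and the T9 array and lends the count no support. Nrcam differed most, at 5.16 and 5.53 in EpiSC-GFP+ against 7.44 and 7.08 in EpiSC-GFP-, a difference of -1.92 ± 0.21 (limma adjusted p = 0.000392), or 3.78-fold higher in EpiSC-GFP-. Meis1 read 5.40 and 5.19 in EpiSC-GFP+ against 6.61 and 6.64 in EpiSC-GFP-, a difference of -1.33 ± 0.20 (adjusted p = 0.00221). Both genes lay lower on each EpiSC-GFP+ array than on either EpiSC-GFP- array, and both calls held under every alternative run.

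The nestin probes pointed the same way with less support. Nes probe 1 read 7.0 and 6.85 in EpiSC-GFP+ against 7.69 and 7.52 in EpiSC-GFP-, a difference of -0.68 ± 0.16 (limma adjusted p = 0.0152). Nes probe 2 read 5.03 and 5.78 in EpiSC-GFP+, the lower of which was not detected, against 6.04 and 6.61 in EpiSC-GFP-, a difference of -0.92 ± 0.26 (adjusted p = 0.0302). With median scaling in place of quantile normalization, which moved the median of all probes to 0.21, neither passed (adjusted p = 0.353 and 0.139). Nes probe 1 also missed without the first EpiSC-GFP- array (adjusted p = 0.0726) and without the second EpiSC-GFP+ array (adjusted p = 0.0855). Nes probe 2 missed without the second EpiSC-GFP- array (adjusted p = 0.157) and without the first EpiSC-GFP+ array (adjusted p = 0.176). Otx1 read 5.15 and 4.78 in EpiSC-GFP+ against 4.31 and 4.33 in EpiSC-GFP-, where it was not detected, a difference of 0.64 ± 0.16 (adjusted p = 0.0196) with no fold, and it passed the filter through the EpiSC-GFP+ and T9-EpiSC arrays. Leaving out either EpiSC-GFP- array ended that call (adjusted p = 0.0642 and 0.0620), and without the first EpiSC-GFP+ array the probe was not tested.

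Otx2, Zic2 and Irx3 did not pass between the fractions. Otx2 differed by 0.30 ± 0.14 (limma adjusted p = 0.158), Zic2 by 0.32 ± 0.19 (adjusted p = 0.263) and Irx3 by -0.16 ± 0.23 (adjusted p = 0.647). Under median scaling Otx2 and Zic2 were called higher in EpiSC-GFP+, by 0.74 and 0.71. The EpiSC-GFP- arrays had the lowest mean intensities, 266.8 and 199.7 against 310.7 and 299.9 in EpiSC-GFP+, and the fewest detected probes, and the part of this in the results was not tested.

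In the anterior list, 3 of 11 tested probes were higher in EpiSC-GFP+ than in EpiSC-GFP- and 1 was lower. The lower one was Gsc, which was not detected in EpiSC-GFP+ and was at least 2.35-fold lower there (means 4.58 in EpiSC-GFP+ and 6.35 in EpiSC-GFP-, limma adjusted p = 0.000663). The higher ones were 1 probe of Sall1, by 0.96 ± 0.15 (adjusted p = 0.00254), and 2 of Sall4, by 0.62 and 0.49 (adjusted p = 0.0157 and 0.036). The Sall4 probe at 0.62 was detected on 1 EpiSC-GFP+ array and no EpiSC-GFP- array, so it lies near background. The remaining tested Sall4 probe differed by -0.26 (adjusted p = 0.22). Of the 7 early neural probes 2 were higher and 2 lower in EpiSC-GFP+. The SoxB factor Sox21 read 6.73 in EpiSC-GFP+ and 5.41 in EpiSC-GFP- (1.32 ± 0.17, adjusted p = 0.00108), and Vim read 8.98 in EpiSC-GFP+ and 9.61 in EpiSC-GFP- (-0.64 ± 0.13, adjusted p = 0.00838). Gbx2 read 8.55 in EpiSC-GFP+ and 6.31 in EpiSC-GFP- (2.24 ± 0.18, adjusted p = 5.2e-05). No probe of the 11 for other adhesion genes passed by limma, and 2 had an unadjusted p under 0.05. Among primed markers Fgf5, a growth factor of the late epiblast, read 6.90 in EpiSC-GFP+ and 9.10 in EpiSC-GFP- (-2.20 ± 0.18, adjusted p = 6.24e-05). Naive marker probes were higher in EpiSC-GFP+ in 12 of 14 cases, and their part in the results was not tested.

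The fourth comparison sets the mean of the 2 E3 fractions against GOF18 EpiSC. In the E3 fractions, 3 of the 8 tested probes were lower than in EpiSC and none was higher, where 20.0% of all tested probes were called lower, 18.1% higher and 38.1% either way. Otx2 read 9.40 and 9.70 in EpiSC-GFP+ and 9.23 and 9.27 in EpiSC-GFP-, against 10.51 and 10.41 in EpiSC, a difference of -1.06 ± 0.13 (limma adjusted p = 0.000249). Nes probe 1 differed by -0.88 ± 0.14 (adjusted p = 0.00108). For both, all 4 E3 arrays lay below both EpiSC arrays. Nrcam differed by -1.17 ± 0.18 (adjusted p = 0.000968), but the first EpiSC-GFP- array, at 7.44, lay above the first EpiSC array, at 7.33, so that the mean difference came from the EpiSC-GFP+ arrays at 5.16 and 5.53. Zic2 differed by 0.24 ± 0.17, Irx3 by -0.15 ± 0.20, Meis1 by 0.15 ± 0.17 and Nes probe 2 by 0.32 ± 0.22, and none of them passed.

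Of the anterior list 5 of 11 tested probes were lower in E3 cells and none higher, and 3 of the 5 were probes of Sall4. Gsc, which EpiSC-GFP+ did not detect, averaged 5.46 in the E3 fractions and 7.83 in EpiSC (-2.36 ± 0.18, limma adjusted p = 3.09e-05). Lhx1 was not detected in E3 cells and was at least 2.36-fold lower there (means 4.61 in E3 and 6.50 in EpiSC, adjusted p = 0.000275). Of the early neural probes 2 of 7 were higher and 1 lower, with Sox21 at 6.07 in E3 and 5.52 in EpiSC (0.55 ± 0.15, adjusted p = 0.0172) and Zfp521 at 5.29 in E3 and 5.96 in EpiSC (-0.68 ± 0.19, adjusted p = 0.0207). Of the streak markers 3 of 6 tested probes were lower in E3 cells. Eomes was not detected there and was at least 1.18-fold lower (means 4.36 in E3 and 5.50 in EpiSC, adjusted p = 8.63e-05). Naive marker probes differed as well, 11 of 14 higher and 1 lower in the E3 fractions with a median difference of 1.44. Of 10 primed marker probes 6 were lower and 1 was higher. The part of both marker sets in the result was not tested.

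**Figure D3:**
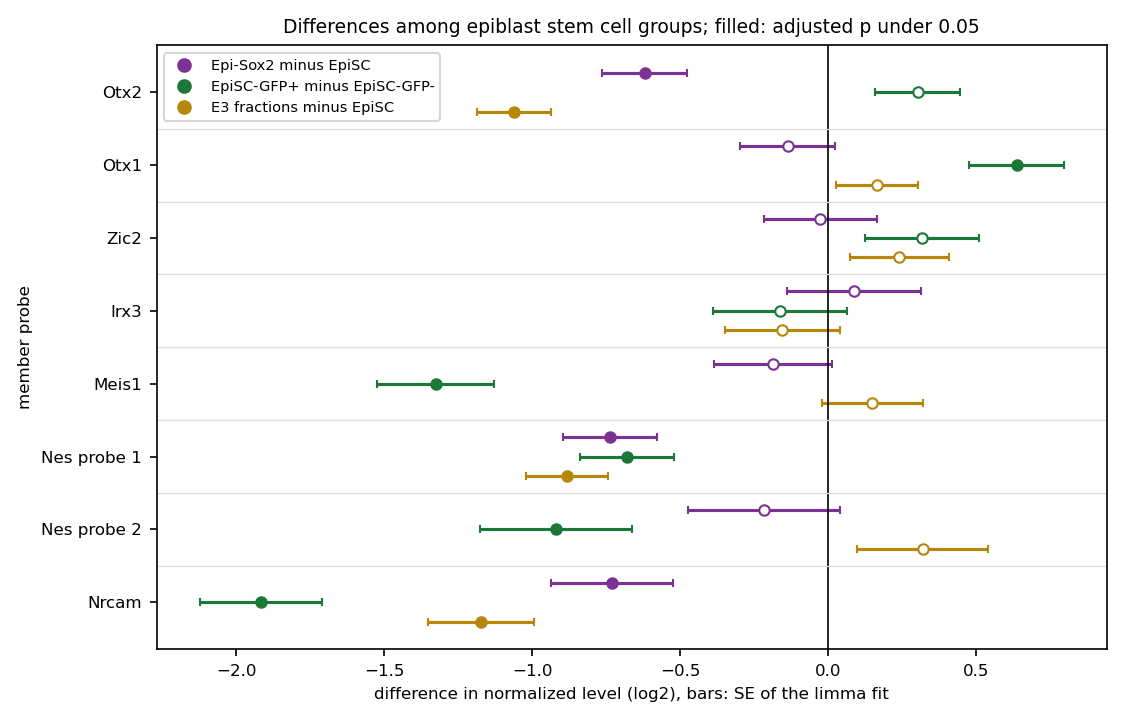
Difference in log2 level (horizontal axis; bars are the SE of the limma fit) of the 8 tested member probes (vertical axis) for Epi-Sox2 minus EpiSC, EpiSC-GFP+ minus EpiSC-GFP- and the E3 fractions minus EpiSC, filled where the adjusted p was under 0.05. Nrcam is below 0 in all 3, at -0.73, -1.92 and -1.17, and Zic2 and Irx3 have no filled point.

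T9-EpiSC cells, which had been without Fgf2 for 2 days, were read on 1 array, so their values are given without a test. Cell line, Fgf2 withdrawal and feeder culture cannot be told apart here, since the series holds no T9 array with Fgf2. Of the 8 tested probes 4 were above all 10 other arrays, where 13.0% of all tested probes were, and 2 were at least 1 log2 unit above the EpiSC mean, where 5.98% of all probes were. Irx3 read 9.28 in T9-EpiSC against at most 6.31 on the other arrays, 7.83-fold over the highest and 9.8-fold over the EpiSC mean. Meis1 read 8.38 in T9-EpiSC against at most 6.64, 3.34-fold over the highest and 5.93-fold over the EpiSC mean. These are the 2 members set well apart in T9 cells. The count of 4 also holds Otx1, which passed the detection filter through the T9 array and 1 EpiSC-GFP+ array, so it lends the count no support. Nrcam was at 7.77 in T9-EpiSC against at most 7.61, and Otx1 at 5.26 against at most 5.15, or 1.11-fold and 1.08-fold over the highest other array.

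Otx2, at 10.51 in T9-EpiSC, lay between the 2 EpiSC arrays, and so did Nes probe 1, at 8.19. Zic2 was at 8.29 in T9-EpiSC, between the EpiSC-GFP+ arrays at 8.14 and 8.33. Nes probe 2 was at 5.34, below both EpiSC arrays, and Pax6 and Zic5 were at 4.25 and 4.28 and not detected. Otx2 and Nes probe 1 thus lay within the range of the EpiSC arrays.

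Some relatives of Irx3 and Meis1 were also high on the T9 array and others were not. Of 16 tested probes of the Zic, Irx and TALE list 7 were above all other arrays and 9 were not, and 21 of its 28 probes were detected in T9-EpiSC against 11 to 15 elsewhere. Meis2 read 10.30 in T9-EpiSC against at most 6.54, Irx2 7.47 against at most 5.37, Irx5 6.99 against at most 5.11 and Pknox2 7.83 against at most 5.54. Irx2 and Pknox2 have further probes, 1 and 4, which read under 5 on the T9 array. Of the 7 probes, 1 each for Pbx2 and Pbx3 were above the highest other array by only 0.05 and 0.25, at 8.0 and 7.18. Pknox1 was below the highest other array on both of its probes, at 5.11 and 5.37 in T9-EpiSC, and Irx4, Irx6 and Zic4 were not detected on any array. Zic1, detected in T9-EpiSC alone, read 5.60 against at most 4.63. Of the early neural list 13 of 39 probes were detected in T9-EpiSC against 2 to 6 elsewhere, and 6 of its 7 tested probes were above all other arrays. Sox21 read 9.89 on its brightest probe against at most 6.82, Zfp521 8.35 against at most 6.08, the ventral neural tube factor Nkx6-1 6.84 against at most 5.35 and Vim 10.86 against at most 9.63. Probes for Nkx2-2, Sox9, Hes5, Hes3 and Cdh2 (2 probes) were detected on the T9 array alone, at 5.11 to 5.48. The second Hes5 probe was not detected in T9-EpiSC, at 4.60, and was detected on the second EpiSC-GFP+ array, at 5.47. Another Sox21 probe was detected on the T9 array alone, at 6.60 against at most 4.86. Further probes of Sox21, Nkx2-2, Cdh2 and Zfp521 were detected on no array. The other early neural genes detected in T9-EpiSC were Dll1 and Map2, whose tested probes exceeded the highest other array by only 0.35 and 0.17. No probe of Sox1, Sox3, Pax2, Pax3, Pax7, Olig2, Neurog1, Neurog2, Neurod1, Msi1, Tubb3, Fabp7, Dcx or Gmnn was detected there. Some tested probes, such as those of Irx5 and Nkx6-1, passed the detection filter through the T9 array, so the counts of tested probes are a description.

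Among posterior and hindbrain genes 9 of 14 probes were detected in T9-EpiSC against 2 to 5 elsewhere. The hindbrain gene Hoxb1 read 7.68 and 6.95 on its 2 probes against at most 4.88 and 4.45. Hoxb2 read 7.21 against at most 4.79, Egr2 6.68 against at most 5.17 and the midbrain-hindbrain gene En1 6.30 against at most 4.87. Above all other arrays were 3 of the 7 tested probes, those of Egr2, Fgf8 and Cdx2, the last by only 0.03. The Egr2 probe passed the detection filter through the T9 array, so it lends this count no support. En2 read 5.24 against at most 6.34, and Gbx2 differed from the highest other array by -0.46. Cdx1 (2 probes), Cdx4, Hoxb4 and Wnt1 were not detected in T9-EpiSC. Of the 11 tested probes of the anterior list 4 were above all other arrays, those of Foxd4, Cer1, Lhx1 and Sp8. The probes of Foxd4, Cer1 and Sp8 passed the detection filter through the T9 array, so this count is a description. The neural plate forkhead gene Foxd4 read 7.86 against at most 5.34. The median difference of the anterior list from the EpiSC mean was -0.31, and it was -0.02 for all tested probes. Six3, Six6, Rax, Emx2, Lhx2, Lhx5, Vax1, Foxd3 and Hesx1 were not detected in T9-EpiSC.

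Markers of other cell types were mixed on the T9 array. Fibroblast markers were detected at 12 of 26 probes in T9-EpiSC, with a summed linear level of 3709, against 6 to 8 probes and 1012 to 2567 in the other epiblast stem cells and 13 to 14 probes and 3518 to 3705 in ESC. Of this list Dcn, Col1a1 and Pdgfra were detected in T9-EpiSC, at up to 6.52, 5.64 and 5.52, and Lox, Lum, Postn, Col1a2 and Col3a1 were not. The smooth muscle actin gene Acta2 was the brightest of the list in T9-EpiSC, at up to 10.97, and weighs most in the summed level. That Acta2 probe read 10.70 and 10.65 in ESC, 10.53 and 10.38 in Epi-Sox2 and 7.85 to 9.08 on the remaining arrays. Streak and mesoderm markers were detected at 9 of 13 probes in T9-EpiSC against 0 to 6 on the other arrays. Of the 6 tested probes 2 were above all other arrays, Foxa2 at 6.85 and Nkx1-2 at 6.63. Both probes passed the detection filter through the T9 array, so this count is a description. The second Foxa2 probe, at 4.22, was detected on no array. Eomes read 5.59 against at most 6.14, and the tested Mixl1, Wnt3 and Evx1 probes also lay below the highest other array. Hand1 and Kdr were not detected in T9-EpiSC. The naive markers in T9-EpiSC had 8 of 15 probes detected and a summed level of 3728. Of the 10 primed marker probes 2 were above all other arrays, those of Car4 and Fgf15. Both Dnmt3b probes, at 12.68 and 6.73, and the Cldn6 probe, at 8.59, were below all other arrays. The part of these cell types in the Irx3 and Meis1 levels was not tested.

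**Figure D4:**
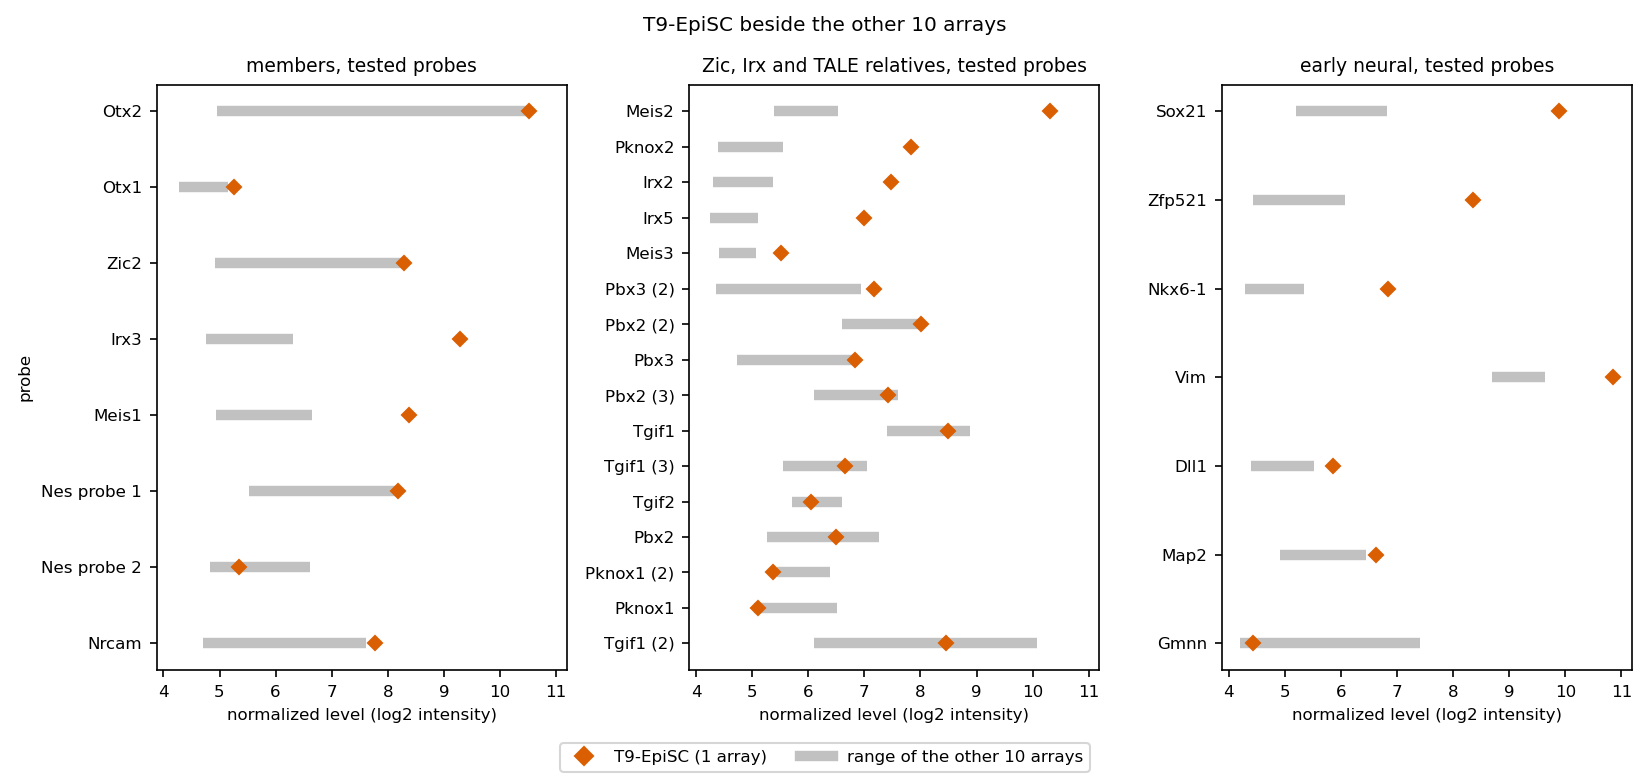
T9-EpiSC level (diamonds, 1 array) and the range of the other 10 arrays (grey bars) on the log2 intensity scale, for the tested probes of the members, of the Zic, Irx and TALE relatives and of the early neural list (probes on the vertical axis). Irx3 and Meis1 stand clear of the grey bars at 9.28 and 8.38, as do Meis2 at 10.30 and Sox21 at 9.89, while Otx2, Zic2 and Nes lie within them.

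The genes most like each member were named by Pearson's r over the 11 arrays, among 5750 detected probes of other genes with an SD of at least 0.5. These values are descriptions, in which the 2 ESC arrays and the T9 array weigh heavily. Otx2 was most like Trip6 (r = 0.98), Pter and Ttc3, and Zic2 most like Ncapg2 (r = 0.98), Qars and Poc1b. Irx3 was most like Zfp521 (r = 0.96), Hdc and P3h2, and Meis1 most like Prox1 (r = 0.95), Phc2 and Hdc. Nes probe 1 was most like Irgm2 (r = 0.98), Epb41l3 and Aif1l, and Nrcam most like Mfap2 (r = 0.98), Wnt8a and Mycl. Otx1, near background, was most like Hmgn5 (r = 0.94), Col26a1 and Cdc42ep2. Between members, r was 0.95 for Otx2 and Zic2, 0.92 for Otx2 and Nes probe 1, 0.91 for Nes probe 1 and Nrcam, and 0.87 for Irx3 and Meis1, over arrays that share the same group differences.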

How the data were processed

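Total RNA was amplified, labelled and hybridized to Illumina MouseRef-8 v2 bead arrays, per the labels' protocols. The deposited intensity per probe is not normalized, per the series design text, and each array has a deposited detection p-value per probe, per the file headers. The authors' deposited matrix holds log2 values with a median of 2.64 on every array. Its normalization is not given in the sources used here, and its zero point and any shift stay unknown. The submitters' processing notes name BeadStudio 3.2, lumi and RMA, with no role.

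Intensities were background-corrected by normexp from the detection p-values (offset 16), quantile-normalized and log2-transformed (limma 3.58.1, R 4.3.3). Tested were the 13048 probes that 2 or more arrays detected (p-value under 0.01), by lmFit and eBayes with 1 mean per group over all 11 arrays (5 residual and 4.4 prior degrees of freedom). Benjamini-Hochberg adjustment ran over all 13048 probes, and a call is an adjusted p under 0.05. Groups come from the sample titles. A fold against a group without detection is a bound from each array's lowest detected signal or the probe's own, whichever is higher. Symbols come from the platform annotation updated by Entrez number: 23978 probes had 1 symbol and 1719 had none. The model was tested on simulated data.

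The members, gene lists and tests were chosen with earlier results of these data known. All members are named with every probe, and from each other list genes are taken from up to 4 with the largest called difference per comparison. Genes named for T9-EpiSC, and those named as not detected, were chosen after their values were seen. Alternatives changed the background correction, normalization, filter, probe choice, samples, variance model and replicate block.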

Additional observations from a re-analysis of the deposited data

How the results depend on the processing

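Of the 35 member differences called, 24 were called under every alternative run, and of the 21 not called, 16 were called under none. No called difference changed direction. In Epi-Sox2 minus EpiSC the count of 3 fell to 0 with the authors' values and to 0 to 1 when single arrays were left out. In EpiSC-GFP+ minus EpiSC-GFP- the count of 5 was 3 with the authors' values, 3 with only the groups compared and 3 to 4 with single arrays left out. In EpiSC-GFP+ minus ESC the count of 5 was 3 to 5 with single arrays left out, with 3 without the first ESC array. Where an array was left out, the lone array of its group was assumed to vary like the others. The causes were not tested.

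Sign changes were limited to 18 values called neither in the main analysis nor under the alternative. Without background correction Otx1 in EpiSC minus ESC was -0.001. With cyclic loess Otx1 in EpiSC-GFP- minus ESC was 0.0581 and Zic2 in Epi-Sox2 minus EpiSC 0.0137. With median scaling Otx1 was 0.0498 in Epi-Sox2 minus ESC and 0.13 in EpiSC-GFP- minus ESC, Meis1 was -0.11 in EpiSC-GFP+ minus ESC, and Irx3 was 0.0815 in EpiSC-GFP+ minus EpiSC-GFP-. In the E3 fractions minus EpiSC it gave -0.17 for Zic2, -0.19 for Meis1 and -0.0446 for Nes probe 2. With single arrays left out, Otx1 in EpiSC minus ESC was -0.12 to 0.16. In Epi-Sox2 minus EpiSC, Otx1 was -0.28 to 0.0029, Zic2 -0.23 to 0.18 and Meis1 -0.48 to 0.11. Irx3 was -0.57 to 0.24 in EpiSC-GFP+ minus EpiSC-GFP- and -0.36 to 0.0446 in the E3 fractions minus EpiSC.

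Over all probes, 2174 were called between Epi-Sox2 and EpiSC, and 685 and 963 without the first and the second Epi-Sox2 array. Between the E3 fractions 3099 were called, 1894 without the second EpiSC-GFP- array, and 1537 and 1636 without the first and the second EpiSC-GFP+ array. In EpiSC minus ESC 57.3% of calls were higher, 46.4% with cyclic loess and 37.2% with median scaling. Median scaling also gave 33.9% in place of 57.4% in Epi-Sox2 minus ESC, 32.3% in place of 58.1% in EpiSC-GFP+ minus ESC, 23% in place of 56.6% in EpiSC-GFP- minus ESC, 91.8% in place of 50.5% between the E3 fractions and 13.4% in place of 47.5% in E3 minus EpiSC. Its median over all probes was -0.59 to -0.19 in the comparisons with ESC, 0.21 between the E3 fractions and -0.26 in E3 minus EpiSC. Replicate numbers were only shared numbers: deviations of same-numbered arrays correlated at -0.02 to 0.08. With the replicate block the Nrcam call in Epi-Sox2 minus EpiSC was lost (adjusted p = 0.0568), and no other member call changed. Quantile normalization after the log, chosen after seeing the data, changed no member call. No slide block could be fitted, since slides are not named. Signals near the detection limit bound the Otx1, Irx3 and Nes probe 2 values. They also bound the ESC levels of Otx2, Zic2, Meis1 and Nrcam, each detected on only 1 ESC array, so the sizes of those differences from ESC depend on the processing.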
